A study of Rattus norvegicus with 138 samples.

Results

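The fibrillar collagen genes described here are the 10 symbols Col1a1, Col1a2, Col2a1, Col3a1, Col5a1, Col5a2, Col5a3, Col11a1, Col11a2 and Col27a1, taken by name from a table of 16181 gene symbols. All 10 were in the table and 9 passed the filter on low values. RNA was sequenced from the tibialis anterior (TA) muscle of male Lewis rats, about 4 months of age, in which volumetric muscle loss (VML), the removal of a plug of muscle with a biopsy punch, was made in the left TA. Injured muscles came from 3, 7, 14 and 28 days post injury (DPI). They were either left non-repaired or filled with autologous minced muscle grafts (MMGs), tissue fragments of the rat's own muscle, and came from rats labelled as running or not running. Contralateral muscles are the unoperated TA of injured rats, and control muscles are both TAs of a pair of rats, labelled Sham and given day 0, with no repair and no running. The labels do not define the running condition further. All rats are of 1 strain, no group carries a transgene, and each muscle is bulk tissue. Rats are named by R and the number in their labels.

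Values are in TPM, a transcript abundance scaled to transcript length and to the same total in every library, so levels of different genes can be compared with each other but the read depth of each library cannot be read from them. Among the libraries, 13 had fewer than 7000 symbols above 1 TPM (901 to 5712, against 7866 to 10948 in the others) and were left out. After averaging libraries of the same muscle, 114 muscles of 78 rats remained: 4 control, 34 contralateral (8, 14, 8 and 4 at the successive days) and 76 injured (24, 24, 16 and 12). Unless another arm is named, comparisons use non-repaired, non-running rats, with 3, 8, 4 and 4 injured and 2, 4, 2 and 2 contralateral muscles. The control rats, R37 and R38, are the rats of day 0, and anything else that sets them apart from the operated rats cannot be told apart from injury. As a check of the tissue, 10 myofibre markers summed to between 191607 and 233669 TPM in control muscle. In injured muscle over all arms the same sum was 19299 to 72947 TPM at 3 DPI and 127057 to 180679 TPM at 28 DPI.

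Fibrillar collagens assemble from triple helices of chains into the striated fibrils that carry tension in connective tissue. Type I collagen combines the Col1a1 and Col1a2 chains, and type III collagen is made of the Col3a1 chain alone and is prominent in extensible and newly formed tissue. Type V chains (Col5a1, Col5a2, Col5a3) and type XI chains (Col11a1, Col11a2) are minor components that nucleate fibrils and limit their diameter, with type XI and type II (Col2a1) best known from cartilage. In skeletal muscle these proteins form the endomysium, perimysium and epimysium and the junction with tendon, and they are the main substance of a fibrotic scar. Fibroblasts and fibroadipogenic progenitors are their usual source.

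Injured muscle held far more fibrillar collagen transcript than control muscle on every day. The 10 genes together accounted for 0.00922% of all TPM in control muscle, where their sum was 92.2 ± 28.9 TPM (SD, n = 4). Over all arms of injured muscle the share was 0.802% at 3 DPI (n = 24), 1.26% at 7 DPI (n = 24), 0.572% at 14 DPI (n = 16) and 0.253% at 28 DPI (n = 12). Type I and type III chains made up most of this. Col3a1 was 38.5%, Col1a2 27.1% and Col1a1 19.6% of the sum in control muscle, whereas at 7 DPI Col3a1 was 35.8%, Col1a1 31.6% and Col1a2 26.3%.

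Col1a1, the α1 chain of type I collagen, was at 19.6 and 18.1 TPM in the left and right TA of the first control rat and at 21.5 and 11.4 TPM in the second. Injured muscles were at 2153, 2038 and 957 TPM at 3 DPI. At 7 DPI the 8 muscles ran from 1669 through a median of 3494 to 5618 TPM. Every injured muscle lay above every control muscle, and the 7 DPI group was the widest. Values at 14 DPI were 1256, 1462, 1927 and 1402 TPM, and at 28 DPI 592, 718, 514 and 1045 TPM. The group mean was thus 185-fold that of control muscle at 7 DPI and 40.6-fold at 28 DPI. On the log2(TPM + 1) scale, in a limma fit over all 11328 tested symbols, the difference from control was 6.47 ± 0.48 (SE), 7.38 ± 0.38, 6.36 ± 0.44 and 5.25 ± 0.44 at 3, 7, 14 and 28 DPI, with adjusted p between 2.62e-31 and 8.77e-18. A symbol was called at a Benjamini-Hochberg adjusted p under 0.05 and a log2 difference beyond 1.

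Col1a2, the α2 chain that joins Col1a1 in type I collagen, ran from 15.3 to 29.8 TPM in control muscle and from 1410 to 4890 TPM at 7 DPI. Its log2 differences from control were 5.98, 6.73, 5.68 and 4.68. Col3a1, the type III chain, was at 40.4, 42.6, 44.9 and 16.8 TPM in the 4 control muscles. It stood at 2845, 2973 and 1761 TPM at 3 DPI and between 2268 and 5794 TPM (median 4114) at 7 DPI. By 28 DPI it had come down to 898, 1064, 860 and 1256 TPM, still above every control value. The differences were 6.14 ± 0.32, 6.74 ± 0.26, 5.86 ± 0.30 and 4.86 ± 0.30 (SE), all called.

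Among the type V chains, Col5a1 is the obligate chain of most type V trimers. It was at 3.20 ± 0.676 TPM in control muscle (SD, n = 4) and at 252.9 ± 83.5 TPM at 7 DPI (n = 8), with log2 differences of 4.94, 5.86, 4.70 and 3.65. Col5a2, its usual partner, rose by 4.44, 5.0, 4.07 and 3.11. Col5a3, a chain found in fewer tissues, was at 2.54, 3.52, 3.40 and 1.12 TPM in control muscle. It was already at 137.1, 93.4 and 54.8 TPM at 3 DPI and ran from 65.1 through 114.3 to 149.6 TPM at 7 DPI. At 14 DPI the values were 32.8, 25.9, 39.0 and 31.8 TPM and at 28 DPI 16.9, 13.4, 8.91 and 14.3 TPM. The 7 DPI and 14 DPI groups did not overlap, nor did the 14 DPI and 28 DPI groups. Col5a3 rose by 4.69 ± 0.32, 4.88 ± 0.25, 3.24 ± 0.29 and 2.01 ± 0.29 (SE) over control.

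The type XI chains were present at low levels and differed from each other in the size of their change. Col11a1 was listed at 0.13, 0.16, 0.25 and 0.02 TPM in control muscle. It was at 7.89, 12.4 and 6.96 TPM at 3 DPI, and from 12.1 through 26.4 to 36.4 TPM at 7 DPI. At 14 DPI it was at 8.25, 10.2, 12.5 and 12.2 TPM and at 28 DPI at 3.75, 4.84, 2.46 and 9.23 TPM. All injured values lay above all control values, and the differences of 3.11 ± 0.37, 4.33 ± 0.29, 3.36 ± 0.34 and 2.30 ± 0.34 were called. Adding 1 TPM understates the change of a gene listed under 1 TPM in control muscle. As a ratio of group means at 7 DPI, Col11a1 was 169.4-fold, Col1a2 116.2-fold, Col3a1 107.1-fold and Col27a1 49.2-fold that of control muscle. Col11a2 was at 0.26, 0.30, 0.59 and 0.18 TPM in control muscle. At 3 DPI it was at 0.92, 0.60 and 0.63 TPM, each above the highest control value, and the difference of 0.37 ± 0.42 was not called (adjusted p = 0.411). It ran from 0.80 to 6.02 TPM at 7 DPI (difference 1.36 ± 0.34, adjusted p = 1.66e-04) and from 1.15 to 2.37 TPM at 14 DPI (1.01 ± 0.39, adjusted p = 0.0175), both called. At 28 DPI the difference was 0.61 ± 0.39 and was not called. The Col11a2 calls were lost when TPM were rescaled by median-of-ratios size factors (0.93 and 0.84). The 14 DPI call was also lost with control muscles averaged per rat (1.00), and without either of control muscles 1 and 4 (0.99 and 0.95) or the injured muscles of R133 and R137 (0.95 and 0.90).

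Col27a1, a chain known chiefly from cartilage, was listed at 0.02 to 0.26 TPM in control muscle and was at 5.58 to 11.5 TPM at 7 DPI. It rose by 2.41, 2.94, 1.69 and 1.30 over control. Col2a1, the cartilage chain, did not pass the filter because no group mean exceeded 1 TPM. Its highest value in any muscle was 1.16 TPM, in a grafted muscle at 7 DPI, and control muscles were listed at 0 to 0.02 TPM. Over all arms it was higher in the injured than in the contralateral muscle of 13 of 14 rats at 7 DPI, 8 of 8 at 14 DPI and 4 of 4 at 28 DPI, against 1 of 8 at 3 DPI. In the same order the median log2(TPM + 1) differences were 0.16, 0.35, 0.23 and -0.06, and the lowest were 0.0, 0.01, 0.16 and -0.28. Several of these signs thus rest on values near 0 TPM. A list of 13 cartilage and bone markers summed to 2.76 to 6.18 TPM in control and 17.9 to 119.6 TPM in injured muscle at 7 DPI. Acan, the cartilage proteoglycan, averaged 4.05 TPM there and was listed at 0 in every control muscle, while Matn1 averaged 0.00542 TPM. Comp, which is in this list and also among the fibril-associated proteins described below, averaged 24.7 TPM in non-repaired, non-running injured muscle at 7 DPI. The median sum of the list was 41.4 TPM over all arms of that day. The part of cartilage or bone cells in the Col2a1 and Col11a2 values was not tested.

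**Figure D1:**
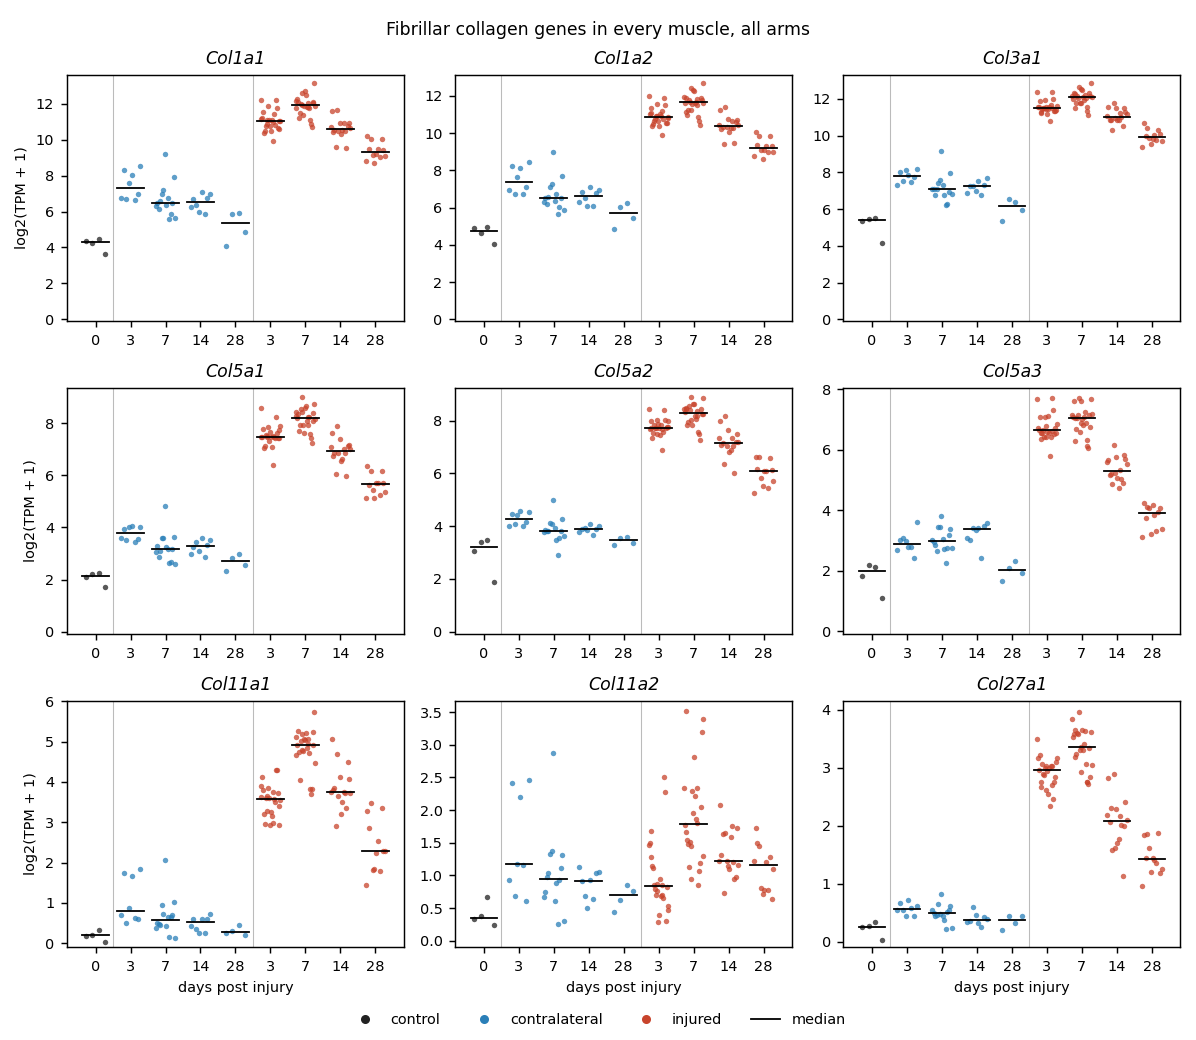
Level of each tested fibrillar collagen gene as log2(TPM + 1) against days post injury, 1 point per muscle over all repair and running arms, with a bar at the median of each group (control at day 0, n = 4; contralateral, n = 8, 14, 8 and 4; injured, n = 24, 24, 16 and 12). Injured muscles separate fully from control muscles for the type I, III and V chains, Col11a1 and Col27a1, whereas the Col11a2 ranges overlap. The share of all tested symbols that separate fully from the 4 control muscles was not counted. In non-repaired, non-running rats 48.3% and 45.6% of all tested symbols were called higher than control at 3 and 7 DPI.

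In numbers of calls, 8 of the 9 tested members rose against control at 3 DPI, 9 of 9 at 7 DPI, 9 of 9 at 14 DPI and 8 of 9 at 28 DPI, and none was lower. Such calls were common in this comparison, since 48.3%, 45.6%, 25% and 21.1% of all tested symbols were called higher on those days. The share of all tested symbols with no overlap between injured and control muscles was not counted. A symbol was tested if its mean was above 1 TPM in any group. Col11a1, Col11a2 and Col27a1 were below 1 TPM in every control muscle, so they were tested only because other groups were higher. Their calls are therefore not independent of the filter, and the same holds for other symbols low in control muscle. The median log2 difference of the members was 4.69, 5.0, 4.07 and 3.11, beside 0.96, 0.91, 0.53 and 0.52 for all tested symbols. The shift of the typical gene depends on the scaling. With size factors it became 0.12, 0.11, 0.04 and 0.05, and the share of called symbols that were higher went from 91.9%, 95.0%, 97.9% and 99.0% to 59.2%, 60.6%, 72.8% and 78.4%. The members other than Col11a2 stayed called on all 4 days, 8 of 9 each time, with medians of 3.75, 4.0, 3.47 and 2.53. Of all tested symbols 24.2%, 21.6%, 15.6% and 11.4% were called higher under that scaling. In bulk muscle, more RNA per cell and more cells of a collagen-producing type cannot be told apart. The summed level of 10 fibroblast and fibroadipogenic markers went from 114.1 to 454.8 TPM in control muscle to 1929 to 6407 TPM in injured muscle at 7 DPI. Of these markers Dcn, Lum and Dpt are also among the fibril-associated proteins described below. Lum alone averaged 7.68 TPM in control muscle and 1358 TPM in non-repaired, non-running injured muscle at 7 DPI. The macrophage markers went from 31.7 to 61.7 TPM in control muscle to 4241 to 7597 TPM at 3 DPI and 822.4 to 5106 TPM at 7 DPI, and 5 endothelial markers from 39.5 to 80.6 TPM to 127.1 to 290.4 TPM at 7 DPI. The sum of 5 smooth muscle and myofibroblast markers did not rise, with 3695 to 5618 TPM in control muscle and 1998 to 4090 TPM in injured muscle at 7 DPI. The part of all these cells in the collagen values was not tested.

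**Figure D2:**
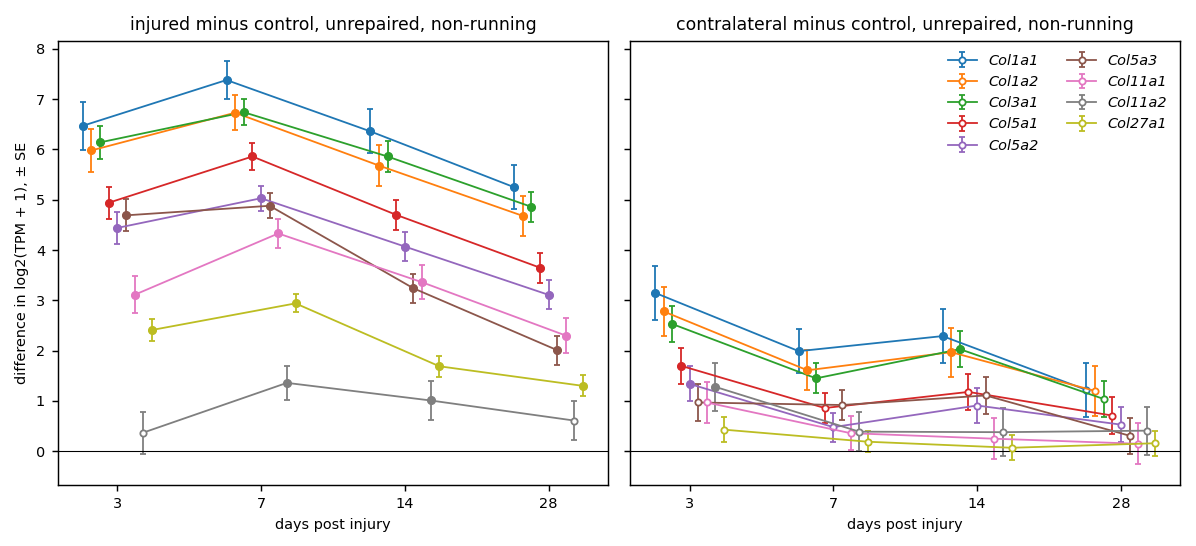
Difference in log2(TPM + 1) from control muscle for each tested member against days post injury (evenly spaced), with SE, for injured muscle on the left and contralateral muscle on the right, non-repaired and non-running rats. Filled points were called at an adjusted p under 0.05 and a difference beyond 1. Col1a1 is the highest in the injured panel on all 4 days (7.38 at 7 DPI), and Col11a2 the lowest.

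Against contralateral muscle, which comes from operated rats and often from the same rat, 8 of 9 members were called higher on each of the 4 days. Of all tested symbols 32.3%, 45.3%, 20.9% and 13.1% were called higher. Contralateral Col1a1 stood at 262 and 97.6 TPM on day 3 and at 106.4, 47.7, 57.9 and 86.4 TPM on day 7. On day 14 it was 132.7 and 58.1 TPM, and on day 28 60.3 and 28.2 TPM. No contralateral value reached the injured range of its day, and the log2 differences were 3.33 ± 0.57, 5.39 ± 0.38, 4.07 ± 0.54 and 4.03 ± 0.54 (SE). The members' median difference was 3.19, 4.54, 3.15 and 2.58, beside 0.54, 0.91, 0.50 and 0.38 for all symbols. With size factors the same count of 8 of 9 was called higher on each day, beside 20.4%, 18.5%, 10.4% and 7.12% of all tested symbols. The share of called symbols that were higher moved from 84.5%, 95.8%, 99.2% and 98.4% to 60.5%, 59.3%, 73.5% and 82.7%.

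Col11a2 was the exception. It was at 3.61 and 1.24 TPM in the contralateral muscles of R10 and R17 at 3 DPI, both above all 3 injured muscles of that day, and the difference of -0.91 ± 0.51 was not called (adjusted p = 0.0995). With size factors it was called lower at -1.17, and without the contralateral muscle of R17 at -1.43. At 7 DPI the difference of 0.97 ± 0.34 had an adjusted p of 0.00623 but fell short of the limit on size. It passed that limit at 1.00 to 1.10 without the contralateral muscle of R105, R125 or R126 or the injured muscle of R106, R125 or R126. Taken within rats of any arm, the injured muscle was the higher for Col1a1, Col1a2, Col3a1, Col5a1, Col5a2, Col5a3, Col11a1 and Col27a1 in every rat with both muscles, 8 of 8, 14 of 14, 8 of 8 and 4 of 4. For Col11a2 this held in 3 of 8, 12 of 14, 6 of 8 and 3 of 4. The share of all symbols higher on the injured side in every rat was not counted. In the group comparison 32.3%, 45.3%, 20.9% and 13.1% of all tested symbols were called higher than contralateral muscle.

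Contralateral muscle itself held more type I and type III transcript than control muscle up to 14 DPI. At 3 DPI, 6 of 9 members were called higher, beside 6.37% of all symbols. They were Col1a1 (3.15 ± 0.54), Col1a2 (2.78 ± 0.49), Col3a1 (2.53 ± 0.36), Col5a1 (1.70 ± 0.36), Col5a2 (1.34 ± 0.35) and Col11a2 (1.28 ± 0.48). At 7 DPI and 14 DPI the calls were Col1a1 (1.99 and 2.29), Col1a2 (1.61 and 1.97) and Col3a1 (1.45 and 2.03), 3 of 9 on each day, beside 0.636% and 0.653% of all symbols. At 28 DPI no member was called, beside 0.185% of all symbols, and the Col1a1 difference was 1.22 ± 0.54 (adjusted p = 0.353). With all libraries kept no member was called at 14 DPI, and with 0.1 TPM added in place of 1 the counts at 7 and 14 DPI were 5 and 5. With size factors the counts were 4, 4, 5 and 0, beside 2.34%, 1.15%, 1.47% and 0.477% of all tested symbols. The share of called symbols that were higher at 3 DPI went from 99.2% to 84.4%. The 3 DPI and 14 DPI calls rest on 2 contralateral muscles each. Over all arms at 3 DPI, the 10 fibroblast and fibroadipogenic markers summed to 828 to 2079 TPM in contralateral muscle against 114.1 to 454.8 TPM in control muscle. The 9 macrophage markers summed to 134.1 to 334.3 against 31.7 to 61.7 TPM, and the myofibre markers to 133365 to 180661 against 191607 to 233669 TPM. None of these ranges overlap, and their part in the collagen values was not tested. Fitted without the other groups, the comparison called 0, 1 and 0 members on days 3, 7 and 14. With control muscles averaged per rat, Col1a2 lost its call at 7 DPI (1.57), Col11a2 at 3 DPI (1.27), and Col3a1 alone was called at 14 DPI. Without the contralateral muscle of R129 no member was called at 14 DPI, with Col1a1 at 1.70. At 3 DPI Col5a2 and Col11a2 lost their calls without the contralateral muscle of R10 (1.07 and 0.76) and without control muscle 4 (0.99 and 1.22). Col11a1 gained a call at 1.49 without the contralateral muscle of R17, and at 1.01 without control muscle 3. Col5a3 gained a call at 3 DPI without control muscle 2 or 3 (1.09 and 1.08). It did so at 7 DPI without either of these (1.05 and 1.03) or the contralateral muscle of R106 (1.07).

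The type XI chains in contralateral muscle varied together with Tnmd, Kera, Fmod and Thbs4 of the 6 tendon markers, and less with Scx and Egr1. Over all arms, 4 of the 34 contralateral muscles stood apart for Col11a2, those of R7, R2, R14 and R10 at 6.30, 4.49, 4.31 and 3.61 TPM, and the next was at 1.58 TPM. The same 4 had Col11a1 at 3.18, 2.60, 2.32 and 2.20 TPM. They also had the highest values of Tnmd, the tendon membrane protein tenomodulin, at 34.4, 24.6, 22.3 and 19.5 TPM, against at most 8.41 TPM in the other 30. Over the 34 muscles Pearson's r of log2(TPM + 1) with Tnmd was 0.965 for Col11a1, 0.941 for Col11a2, 0.858 for Col1a1 and 0.721 for Col3a1, and the points share 3 of the 4 high muscles with the 3 DPI group. For Col11a1 and Col11a2, r was 0.970 and 0.939 with Kera, 0.870 and 0.875 with Fmod and 0.894 and 0.858 with Thbs4. It was 0.215 and 0.221 with Egr1, and 0.879 and 0.846 with Chad, which is in the cartilage and bone list. With Scx, the tendon transcription factor scleraxis, r was 0.499 and 0.383. The highest Scx level, 101.7 TPM, was in the contralateral muscle of R5, where Tnmd was at 2.21 TPM and Col11a2 at 0.60 TPM. The summed level of 6 tendon markers was 92.8 to 308.9 TPM in contralateral muscle at 3 DPI, 26.9 to 267.3 at 7 DPI, 35.3 to 66.7 at 14 DPI and 35.5 to 66.5 in control muscle. In injured muscle it was higher, at 105.6 to 611.5, 285.7 to 1097, 203.2 to 723.1 and 149.6 to 472.8 TPM on the successive days. Among the 76 injured muscles r with Tnmd was 0.549 for Col11a1, 0.800 for Col11a2 and 0.366 for Col1a1. Kera, Fmod and Thbs4 gave the same order of these genes there, with Col11a2 the highest and Col1a1 the lowest. Scx and Egr1 put Col11a2 lowest, with 0.634, 0.200 and 0.599 for Scx and 0.619, 0.228 and 0.774 for Egr1. The part of tendon in the collagen values of contralateral and injured muscles was not tested.

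**Figure D3:**
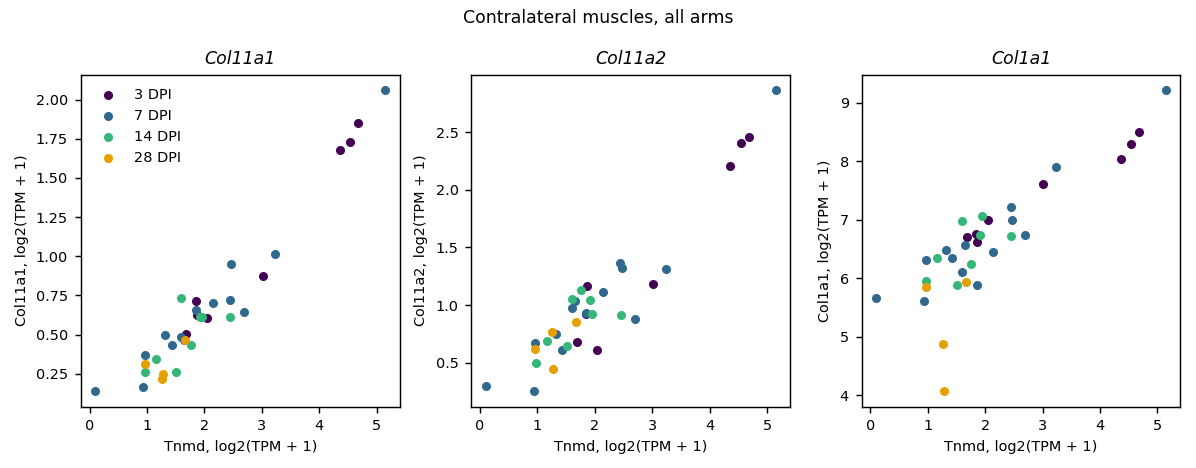
Level of Col11a1, Col11a2 and Col1a1 against that of the tendon gene Tnmd in the 34 contralateral muscles of all arms, both as log2(TPM + 1), coloured by day. The 4 muscles at the upper right of each panel are those of R7, R2, R14 and R10, with Tnmd at 19.5 to 34.4 TPM.

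The group mean over all rats was highest at 7 DPI for every tested member in all 4 arms. For Col5a3 the step from 3 to 7 DPI was 0.20 ± 0.28 on the log2 scale (adjusted p = 0.601), and it turned to -0.15 with all libraries kept and to -0.14 without R18. The 4 rats of 7 DPI numbered 91 and above averaged 82.5 TPM of Col5a3, below the 3 DPI mean of 95.1 TPM. At 28 DPI the non-repaired, non-running mean was 22% of its 7 DPI value for Col1a1, 22.9% for Col1a2, 26.3% for Col3a1, 20.8% for Col5a1, 26% for Col5a2, 12.6% for Col5a3, 21.4% for Col11a1, 37.9% for Col11a2 and 23.1% for Col27a1. At 3 DPI Col5a3 was already at 89.1% of its 7 DPI mean, whereas Col11a1 was at 38.3% and Col11a2 at 26%. Between 3 and 7 DPI, Col11a1 was the 1 member of 9 called higher (1.22 ± 0.32, adjusted p = 0.00155), beside 2.0% of all symbols. The 3 DPI rats of this arm are all numbered up to 32. Within that range Col11a1 (1.72), Col11a2 (1.53) and Col5a1 (1.22) were called. Keeping the low-symbol libraries ended that call (0.89). Without the injured muscle of R17 at 3 DPI, or that of R126 at 7 DPI, Col5a1 was called too (1.18 and 1.02). Col11a2 was called without R106, R125 or R126 (1.12, 1.09 and 1.07).

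Between 7 and 14 DPI, 5 of 9 members were called lower, beside 6.10% of all symbols. All 14 DPI rats are numbered 91 and above, as are 4 of the 8 at 7 DPI, whose Col1a1 levels lay below those of the other 4. Against these 4 alone Col5a3 was the 1 member called (-1.30 ± 0.24, adjusted p = 5.66e-05), and Col27a1 was at -0.91, Col5a1 at -0.87, Col1a1 and Col1a2 at -0.56 and Col11a2 at 0.19. The injured muscle of R11, the highest for Col1a1 at 7 DPI (5618 TPM), comes from a rat with 1 contralateral library labelled day 3 and its other libraries labelled day 7. Without R11, Col5a3, Col27a1 and Col5a1 were called. In the model of all rats, Col5a3 fell by 1.64 ± 0.25 on the log2 scale (adjusted p = 1.00e-07), Col27a1 fell by 1.25 ± 0.18 and Col5a1 fell by 1.17 ± 0.26. Col1a2 fell by 1.05 ± 0.35 and Col1a1 fell by 1.02 ± 0.38, while Col3a1 at -0.87, Col5a2 at -0.96 and Col11a1 at -0.97 were short of the limit on size. The typical symbol was at -0.40 in this step. Size factors took that to -0.06 and changed the share of higher calls among all called symbols from 10.6% to 60.9%. They left Col5a3 as the single member called lower, with 186 of all tested symbols called lower in place of 691. The Col1a1 call was lost without any of the 7 DPI muscles of R11, R12, R19, R20 and R105 (-0.89, -0.99, -0.98, -0.95 and -0.99) or the 14 DPI muscles of R129 and R141 (-0.94 and -0.99). That of Col1a2 was lost without R11, R20 or R129 (-0.92, -0.98 and -0.97). Col5a2 gained a call without R106, R125, R126 or R137 (-1.02 to -1.07), and Col11a1 without any of these or R141 (-1.03 to -1.09). Between 14 and 28 DPI Col5a3 fell by 1.23 ± 0.29 (adjusted p = 0.0138) and was the 1 member of 9 called, beside 0.353% of all symbols. Size factors made this count 3, and with all libraries kept it was 0. The 28 DPI rats are numbered between the 2 ranges and the 14 DPI rats above them, so rat number and day cannot be told apart in this step, for levels and for the ratios that follow. With the rat as a block Col5a1 was called as well, at -1.05 with an adjusted p of 0.0494 in place of 0.0505. The Col5a3 call was lost without the muscle of R137 at 14 DPI (-1.14) or that of R81 at 28 DPI (-1.06), and without R82 at 28 DPI 5 members were called.

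Ratios between chains were taken within each muscle as the log2 of the TPM ratio with 0.1 TPM added to both. A change that both chains share cancels where both are well above that amount, which Col11a1 was not in control and most contralateral muscles. The linear ratio of Col1a1 to Col1a2 was between 0.673 and 0.766 in the 4 control muscles. In injured muscle of all arms the mean ratio was 1.10, 1.20, 1.15 and 1.09 at 3, 7, 14 and 28 DPI, and no injured muscle overlapped the control range. Contralateral means lay between at 3, 7 and 14 DPI (0.964, 0.985 and 0.937) and within the control range at 28 DPI (0.720). Within rats the log2 ratio was higher on the injured side by 0.18 ± 0.12 at 3 DPI (SD, n = 8, 8 of 8 rats), by 0.23 ± 0.14 at 7 DPI (n = 14, 12 of 14), by 0.30 ± 0.14 at 14 DPI (n = 8, 8 of 8) and by 0.60 ± 0.27 at 28 DPI (n = 4, 4 of 4). In a two-sided exact sign-flip test over rats the adjusted p was 0.0187, 0.00391, 0.0187 and 0.199, adjusted over 6 ratios and 4 days. With 4 rats at 28 DPI the smallest unadjusted p that this exact test allows is 0.125.

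Within type V collagen the chains drew apart over time. The mean ratio of Col5a3 to Col5a1 in injured muscle was 0.580, 0.436, 0.333 and 0.258 at the successive days, against 0.779 in control muscle and 0.521, 0.842, 0.964 and 0.564 in contralateral muscle. The SD of the log2 ratio between muscles of a day was 0.24 to 0.26, and the ranges of neighbouring days overlapped (-1.19 to 0.03, -1.65 to -0.57, -1.96 to -1.09 and -2.30 to -1.42). The log2 ratio moved by -0.43 from 3 to 7 DPI (adjusted p = 3.60e-05), -0.41 from 7 to 14 DPI (adjusted p = 5.14e-05) and -0.33 from 14 to 28 DPI (adjusted p = 0.00310), in a two-sided permutation test of days within arms. For these steps 1.00e-05 is the smallest unadjusted p that the permutations can give, and the adjustment is over 6 ratios and 3 steps. In rats numbered 91 and above alone the step from 7 to 14 DPI was -0.39 (adjusted p = 0.00128, over 6 ratios). Within rats the injured side was lower by -1.06 ± 0.35 at 7 DPI (n = 14, 14 of 14 rats, adjusted exact p = 0.00146) and by -1.48 ± 0.29 at 14 DPI (n = 8, 8 of 8, adjusted exact p = 0.0187). At 3 DPI the difference was 0.16 ± 0.57 with 5 of 8 rats higher (adjusted exact p = 0.644), and it was -0.03 without R10. At 28 DPI it was -1.12 ± 0.20 in 4 of 4 rats (adjusted exact p = 0.199).

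The ratio of Col5a2 to Col5a1 was 2.06 in control muscle (range 1.18 to 2.66) and 1.18, 1.05, 1.19 and 1.29 in injured muscle. It was lower on the injured side in all rats with both muscles, by -0.28 ± 0.09 (n = 8), -0.63 ± 0.22 (n = 14), -0.45 ± 0.16 (n = 8) and -0.57 ± 0.27 (n = 4), with adjusted exact p of 0.0187, 0.00146, 0.0187 and 0.199. In injured muscle it moved by -0.19 from 3 to 7 DPI, then by 0.17 and 0.13 in the next steps, with adjusted permutation p of 5.14e-05, 3.60e-05 and 0.00612. The middle step was 0.26 in rats numbered 91 and above alone (adjusted p = 0.00128). In the non-running arms alone the last step was 0.07 and did not pass (adjusted p = 0.229). At 7 DPI the within-rat differences in rats numbered up to 32 (n = 6) were -0.99 for Col5a3 and -0.64 for Col5a2, and in rats numbered 91 and above (n = 8) -1.12 and -0.63. The smaller set had adjusted exact p of 0.0938 for both and the larger 0.0156.

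Promoter sequences of the type V chains and Col11a1 are printed because the ratios above and below compare these chains. They are the 150 bases before the annotated start, from RefSeq on build GRCr8, read 5′ to 3′ on the gene's strand, and 7 of the 10 members matched the table. Capitals mark matches to the CCAAT box (read as ATTGG on the other strand) and to the GC box GGGCGG (read as CCGCCC). The TATA box TATAAA was searched on both strands too.
Col5a1 (chr3:31606730-31606879, plus strand): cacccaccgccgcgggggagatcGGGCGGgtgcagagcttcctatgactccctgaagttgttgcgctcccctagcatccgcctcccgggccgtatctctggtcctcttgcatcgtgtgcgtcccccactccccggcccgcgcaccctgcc
Col5a2 (chr9:55090152-55090301, minus strand): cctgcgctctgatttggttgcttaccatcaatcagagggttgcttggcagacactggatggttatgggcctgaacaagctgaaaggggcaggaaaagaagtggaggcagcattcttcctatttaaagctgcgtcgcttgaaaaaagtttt
Col5a3 (chr8:27625949-27626098, minus strand): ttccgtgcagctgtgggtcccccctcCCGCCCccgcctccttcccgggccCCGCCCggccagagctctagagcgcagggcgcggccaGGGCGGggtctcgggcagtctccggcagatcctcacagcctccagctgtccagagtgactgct
Col11a1 (chr2:204508986-204509135, plus strand): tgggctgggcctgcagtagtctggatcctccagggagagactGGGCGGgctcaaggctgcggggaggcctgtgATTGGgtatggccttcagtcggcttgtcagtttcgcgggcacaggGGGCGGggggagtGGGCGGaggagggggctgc
The Col5a2 window holds 47.3% G and C and none of these motifs, while those of Col5a1, Col5a3 and Col11a1 hold 69.3%, 73.3% and 68.7%, beside a median of 52.7% over 33469 promoters. GGGCGG was in 5 of 7 member windows and in 26% of all windows of the same length, CCAAT in 1 of 7 and 23.5%, while TATAAA was in 0 of 7 and 8.0%. No overlap between motifs occurs in the 4 printed windows, and a match is a description of letters only.

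The ratio of Col3a1 to Col1a1 had its lowest injured mean at 7 DPI. It was 1.96 in control muscle (range 1.47 to 2.35) and 1.43, 1.13, 1.39 and 1.5 in injured muscle at the successive days. The step from 3 to 7 DPI was -0.38 on the log2 scale (adjusted permutation p = 3.60e-05) and that from 7 to 14 DPI 0.32 (adjusted p = 3.82e-04). Non-running rats alone gave 0.13 for the latter (adjusted p = 0.0922), and rats numbered 91 and above alone gave 0.04 (adjusted p = 0.613). Against the contralateral side the 7 DPI difference was -0.24 ± 0.37 (SD, n = 14, lower in 10 of 14 rats, adjusted exact p = 0.0490). It did not pass in rats numbered up to 32 alone (-0.4, adjusted exact p = 0.188) or in rats numbered 91 and above alone (-0.12, adjusted exact p = 0.211). The other days gave 0.13, -0.24 and -0.35 at 3, 14 and 28 DPI, which did not pass (adjusted exact p of 0.589, 0.199 and 0.316). The 7 DPI call was lost without any of 10 of the 14 rats (R4, R8, R15, R16, R106, R107, R108, R126, R127 and R128), with values of -0.18 to -0.26. Col5a1 to Col1a1 was 0.188 in control muscle and 0.0855, 0.0754, 0.0765 and 0.0731 in injured muscle, beside 0.0736, 0.0841, 0.0972 and 0.155 in contralateral muscle. It was lower on the injured side by -0.36 ± 0.28 at 14 DPI (n = 8, 8 of 8 rats, adjusted exact p = 0.0187). The difference was 0.10 at 3 DPI (4 of 8 rats higher), 0.01 at 7 DPI (6 of 14 higher) and -1.05 at 28 DPI (4 of 4 lower), with adjusted exact p of 0.644, 0.958 and 0.199. Over all rats no step between days passed the threshold (adjusted p between 0.0534 and 0.443). The 3 to 7 DPI step passed without any of 17 of the 48 muscles, and the 7 to 14 DPI step was -0.27 in rats numbered 91 and above alone (adjusted p = 0.00128).

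Col11a1 to Col5a1 averaged 0.0588 in injured muscle on day 3 and 0.0946, 0.112 and 0.0898 on the later days. The step from 3 to 7 DPI was 0.68 on the log2 scale (adjusted permutation p = 3.60e-05), and that from 14 to 28 DPI was -0.37 (adjusted p = 0.0131). The first was 0.64 in rats numbered up to 32 alone (adjusted p = 1.20e-04). The step from 7 to 14 DPI was 0.22 over all rats and did not pass (adjusted p = 0.0745), while rats numbered 91 and above alone gave 0.44 (adjusted p = 0.0134). The second was -0.17 with 1 TPM added in place of 0.1 (adjusted p = 0.138). Against contralateral muscle the sign of this ratio depends on the amount added. At 14 DPI the within-rat difference was 1.09 ± 0.33 with 0.1 TPM added (n = 8, 8 of 8 rats, adjusted exact p = 0.0187) and -0.21 with 1 TPM added.

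**Figure D4:**
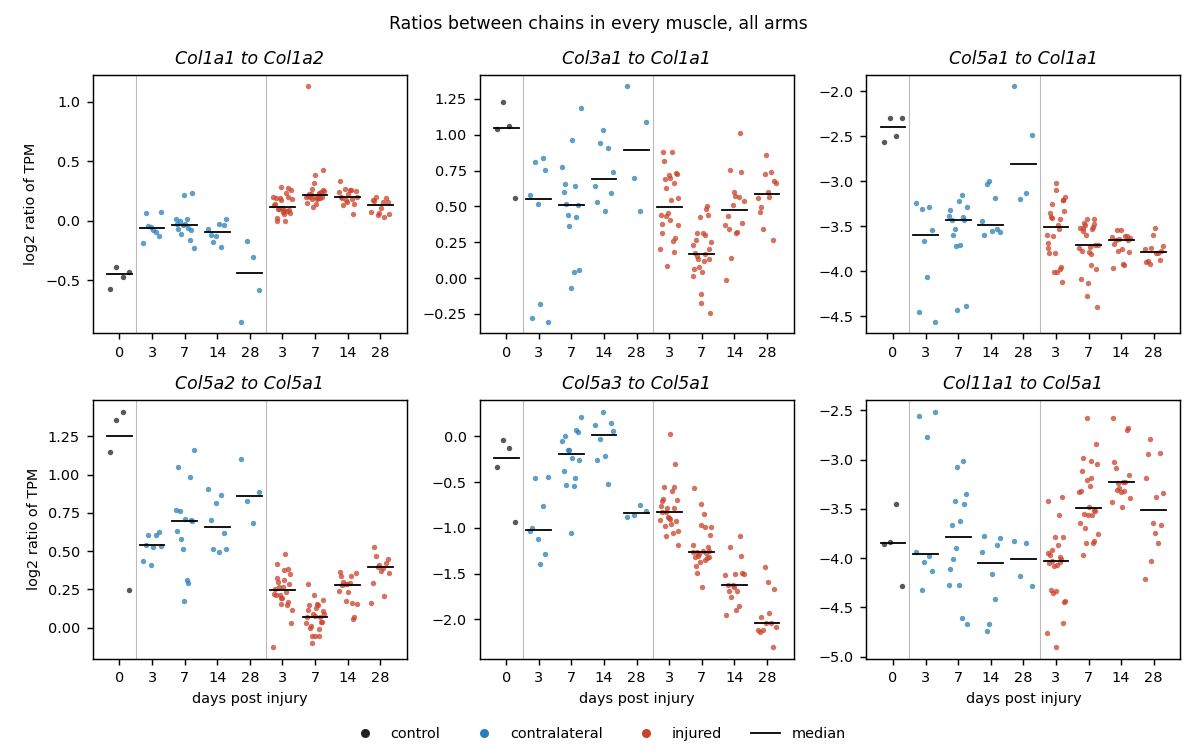
Log2 ratio of TPM (0.1 added to both) for 6 pairs of chains against days post injury, 1 point per muscle over all arms, with a bar at the group median (control n = 4; contralateral n = 8, 14, 8 and 4; injured n = 24, 24, 16 and 12). Col5a3 to Col5a1 steps down in injured muscle from a mean log2 ratio of -0.79 at 3 DPI to -1.95 at 28 DPI, and 1 muscle at 7 DPI stands alone for Col1a1 to Col1a2 at 1.13.

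MMG repair moved no fibrillar collagen gene past the test. Col1a1 in grafted, non-running muscle ran from 1328 to 4624 TPM at 3 DPI (median 2278, n = 7), from 2391 to 4933 TPM at 7 DPI (median 3976, n = 8), from 1389 to 3026 TPM at 14 DPI (n = 4) and from 454 to 1192 TPM at 28 DPI (n = 4). These ranges overlap those of non-repaired muscle on all 4 days. The log2 differences from non-repaired muscle were 0.45 ± 0.43, 0.30 ± 0.31, 0.26 ± 0.44 and 0.22 ± 0.44 (SE), with adjusted p of 0.548 to 0.999. Of the 9 members 0 were called on each day in either direction, beside 0.00883%, 0.0883%, 0.0265% and 0% of all symbols. Differences above 0 were listed for 9, 9, 9 and 8 of the 9 members, with medians of 0.41, 0.30, 0.33 and 0.14 beside 0.14, 0.11, 0.12 and 0.07 for all symbols. The median symbol thus lay above 0 on each day too, and the share of all symbols above 0 was not counted. With size factors the medians became 0.25, 0.18, 0.19 and 0.06, and the differences above 0 were 9, 9, 8 and 7. The member with the lowest adjusted p was Col27a1 at 7 DPI (0.36 ± 0.15, adjusted p = 0.0989). Within rats numbered up to 32 the 7 DPI median was 0.05, and within rats numbered 91 and above it was 0.54, with 0 members called in both. The test of whether grafting moved the injured and contralateral sides differently also called 0 of 9 members on each day, beside 0% of all symbols on all 4 days, while 237, 1308, 100 and 63 symbols had an unadjusted p under 0.05.

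Running was compared with not running in non-repaired injured muscle, again with 0 of 9 members called on each day. The running groups held 8, 4, 4 and 2 muscles at the successive days and the non-running groups 3, 8, 4 and 4. The share called among all symbols was 0.0441%, 0%, 0.0177% and 0.0177%, and 1643, 2414, 1128 and 429 symbols had an unadjusted p under 0.05. At 7 DPI Col1a1 was at 3747 to 9032 TPM in running rats (n = 4) and 1669 to 5618 TPM in non-running rats (n = 8), a log2 difference of 0.72 ± 0.38 (adjusted p = 0.256). The running rats of that day are all numbered up to 32, and rat number went with level in the non-running group. There Col1a1 was at 3530 to 5618 TPM in the 4 rats numbered up to 32 and at 1669 to 3458 TPM in the 4 numbered 91 and above, with no overlap. Within rats numbered up to 32 the 7 DPI difference was 0.26 ± 0.50, and at 3 DPI it was 0.89 ± 0.54 (adjusted p = 0.427). The members' median difference was 0.39, 0.51, 0.00 and -0.17 at the successive days, beside 0.07, 0.01, 0.11 and -0.08 for all symbols. With size factors the members' medians were 0.31, 0.53, -0.10 and -0.08. The few calls at 3 DPI were 0 higher and 5 lower, or 1 and 7 with size factors.

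**Figure D5:**
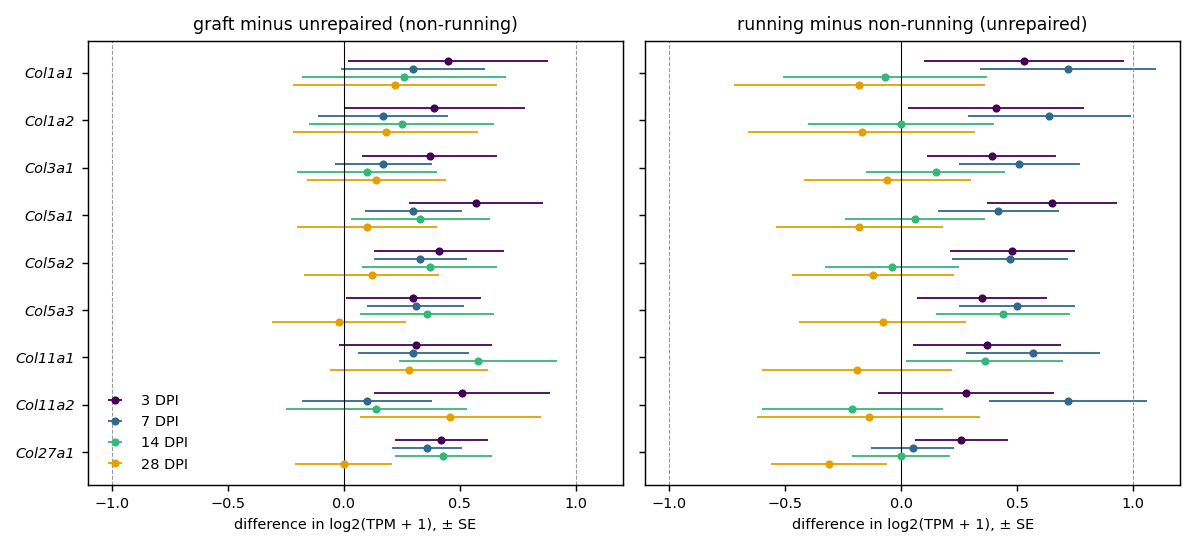
Difference in log2(TPM + 1) with SE for each tested member by day, for grafted against non-repaired injured muscle (left) and running against non-running injured muscle (right). Dashed lines mark the limit of 1 on the size of a call. All points lie within it, between -0.31 and 0.72.

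Genes whose products process, join or decorate collagen fibrils were compared with control in the same way, beside 48.3%, 45.6%, 25% and 21.1% of all tested symbols called higher, or 24.2%, 21.6%, 15.6% and 11.4% with size factors. Of 28 tested collagen processing genes, 26, 25, 23 and 21 were called higher against control at 3, 7, 14 and 28 DPI and 0 lower, with medians of 3.14, 3.18, 2.16 and 1.69. With size factors the counts were 23, 21, 20 and 19. The highest at 7 DPI were Loxl1 (5.72), Lox (5.39) and Loxl2 (5.18), enzymes that cross-link collagen and elastin. The lowest were Larp6 (0.45), which binds collagen messenger RNA, P4ha1 (0.56), a prolyl hydroxylase subunit, and P3h2 (0.86), a prolyl hydroxylase, and none of them was called on that day. P4ha1 was called higher at 3 DPI (1.18) and stood at 0.02 and -0.07 at 14 and 28 DPI.

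All 14 fibril-associated proteins were called higher at 7 and 14 DPI, with 12 at 3 DPI and 13 at 28 DPI, against the same shares of all symbols. With size factors the counts were 11, 14, 14 and 13 at the successive days. Postn, the matricellular protein periostin, rose by 8.51 at 7 DPI, from a mean of 2.38 TPM in control muscle to 1261 TPM. Lum, the proteoglycan lumican, rose by 7.35 and Aspn, asporin, by 7.01. At the other end were Ctgf (2.51), Comp (3.36) and Fmod (3.37). Fmod, fibromodulin, was not called at 3 DPI (1.04). On that day it was at 12.7 and 57.5 TPM in the contralateral muscles, the higher being R10, and at 7.05 to 23.3 TPM in injured muscle (difference -1.25 ± 0.95, adjusted p = 0.235, not called).

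Of 14 tested other collagens, 8, 9, 9 and 8 were called higher, or 6, 8, 9 and 8 with size factors, against the same shares of all symbols under each scaling. Col16a1 (5.75) and Col14a1 (5.20), which associate with fibrils, and Col6a2 (5.1), a chain of the pericellular type VI network, led at 7 DPI. Col7a1 (0.07) of anchoring fibrils and the basement membrane chains Col4a3 (0.19) and Col4a4 (0.59) were not called on any day.

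Levels of the tested members other than Col11a2 varied together, with r of 0.744 or more for each pair over the injured muscles. Over the 76 injured muscles Pearson's r of log2(TPM + 1) was 0.992 between Col1a1 and Col1a2, 0.992 between Col5a1 and Col5a2, 0.944 between Col5a3 and Col5a1, 0.684 between Col11a2 and Col11a1 and 0.326 between Col11a2 and Col5a3. These muscles share days and arms, so r describes the levels and carries no test. With the members themselves left out of the search, the symbols most like Col1a1 over all 114 muscles, injured and uninjured together, were Sparc (r = 0.99), Fkbp7 (0.989), Aebp1 (0.989) and P3h3 (0.988). For Col3a1 they were Fstl1, Loxl2, Col6a2 and P3h3 (0.988 to 0.993), and for Col11a1 Thbs2, Col16a1, Dkk3 and Chpf (0.985 to 0.987). Col5a3 was most like Chsy1, Lrrc17, Adamts14 and Aldh18a1 (0.979 to 0.981), and Col27a1 most like Chsy1, Cdh11, Ttyh3 and Igsf3 (0.987 to 0.988). Within the 76 injured muscles the r of these pairs ran from 0.936 to 0.983.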

How the data were processed

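The authors quantified paired-end RNA-seq libraries with Kallisto and deposited a table of TPM (transcript abundance scaled to length and to a fixed library total) per gene symbol, which was used as deposited, with the last, incomplete entry left out. TPM are not counts, so limma 3.58.1 in R 4.3.3 was used with an intensity trend on log2(TPM + 1), in a single model of 114 muscles in 31 groups (83 residual degrees of freedom). Symbols whose mean was above 1 TPM in any group were tested. The paper's thresholds were kept (adjusted p under 0.05, log2 difference beyond 1). Labels of 9 libraries contradict each other, and these joined no group. Chain ratios were tested by exact sign flips within rats and by 100000 permutations of days within arms. The rat pairs the muscles: deviations from group means of muscles of the same rat correlated at 0.0722 on average over 36 pairs (15 above 0.1), and at -0.00871 between rats. Named list genes are the 3 highest and 3 lowest at 7 DPI against control, and alike genes the 4 with the highest r, members left out. The members and lists were chosen with earlier results of these data known. Code was tested on simulated data. Analyses used Python 3.11.15, numpy 2.4.6, pandas 2.3.3 and scipy 1.17.1. Alternatives covered the pseudocount, the filter, size factors, the rat as a block, single libraries, all libraries, the compared groups alone, leaving out R11 (libraries labelled with 2 different days), control muscles averaged per rat and each muscle left out. Ranges of rat numbers were added after the data were seen.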

Additional observations from a re-analysis of the deposited data

Results flagged for a closer look

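Single muscles were compared with the rest of their group for the 9 tested members and 6 chain ratios in 16 groups of 4 to 10 muscles, 240 values in all, and 10 were flagged where chance would give about 12. The gap to the nearest other muscle, as a share of the group's range, exceeded the 95% limit of Dixon's test in each. The injured muscle of R23 at 7 DPI (grafted, non-running) was flagged for 2 ratios, with a log2 Col1a1 to Col1a2 ratio of 1.13 against 0.15 to 0.27 in the other 7, and a Col5a3 to Col5a1 ratio of -0.57 against -1.50 to -1.19. The Col5a2 to Col5a1 ratio was -0.13 in R9 (grafted, non-running, 3 DPI) and 0.17 in R140 (grafted, running, 14 DPI).

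Among levels, control muscle 4 had Col3a1 at 16.8 TPM against 40.4 to 44.9 TPM in the other 3. The contralateral muscle of R106 at 7 DPI had Col11a1 at 0.120 TPM against 0.560 to 0.630 TPM. The grafted muscle of R135 at 14 DPI had Col11a1 at 32.4 TPM against 12.5 to 13.4 TPM. Col27a1 was at 5.1 TPM in R26 (grafted, running, 3 DPI) and at 2.68 TPM in R82 (non-repaired, 28 DPI). Col5a1 was at 61.0 TPM in the running, non-repaired muscle of R130 at 14 DPI against 129.3 to 141.1 TPM in the other 3.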

How the results depend on the processing

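TPM give no read depth, and the control group is 4 muscles of 2 rats. Several contralateral groups hold 2 muscles, as do the running injured groups at 28 DPI. The rat as a block changed no count of called members except that of 14 to 28 DPI, from 1 to 2. No alternative moved a count of members higher in injured muscle, against control or contralateral muscle, by over 1.5 times, and 0 were called for grafting or running under each. For contralateral against control muscle the counts of 6, 3 and 3 became 0, 1 and 0 in the compared groups alone at 3, 7 and 14 DPI. At 7 DPI a pseudocount of 0.1 gave 5. At 14 DPI it gave 5, size factors 5, all libraries 0 and averaged control muscles 1. Between 3 and 7 DPI the count of 1 became 2 with a pseudocount of 0.1, 0 with all libraries and 3 in rats numbered up to 32. Between 7 and 14 DPI the count of 5 became 1 with size factors, 1 with all libraries, 3 without R11 and 1 in rats numbered 91 and above. Between 14 and 28 DPI the count of 1 became 3 with size factors, 2 with single libraries, 0 with all libraries, 4 in the compared groups alone and 2 without R11. Leaving out each muscle in turn gave 0 to 3 for contralateral muscle at 14 DPI, 1 to 3 for 3 to 7 DPI, 3 to 7 for 7 to 14 DPI and 0 to 5 for 14 to 28 DPI. The cause of these differences was not tested.

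For ratios within rats, the non-running rats alone, 4 at 3 and 14 DPI and so unable to pass, gave the following. At 3 DPI Col1a1 to Col1a2 was 0.18 and Col5a2 to Col5a1 -0.24. At 7 DPI Col3a1 to Col1a1 was -0.21 and Col5a1 to Col1a1 -0.05 in place of 0.01. At 14 DPI Col1a1 to Col1a2 was 0.37, Col5a1 to Col1a1 -0.36, Col5a2 to Col5a1 -0.46, Col5a3 to Col5a1 -1.50 and Col11a1 to Col5a1 0.89. With 1 TPM added, Col11a1 to Col5a1 was -1.15, -0.89, -0.21 and -0.98 at 3, 7, 14 and 28 DPI in place of -0.42, 0.30, 1.09 and 0.40, and Col5a1 to Col1a1 was -0.13 at 7 DPI. All libraries gave -0.11 for Col3a1 to Col1a1 at 7 DPI. At 7 DPI rats numbered up to 32 alone gave 0.15 for Col1a1 to Col1a2, -0.40 for Col3a1 to Col1a1, -0.64 for Col5a2 to Col5a1 and -0.99 for Col5a3 to Col5a1, none past the threshold, and rats numbered 91 and above gave -0.12 for Col3a1 to Col1a1. Leaving out each rat gave -0.05 to 0.17 for Col5a1 to Col1a1 and -0.03 to 0.23 for Col5a3 to Col5a1 at 3 DPI, and -0.28 to -0.18 for Col3a1 to Col1a1 and -0.06 to 0.06 for Col5a1 to Col1a1 at 7 DPI.

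Between days, 1 TPM added gave -0.21 for Col5a1 to Col1a1 from 3 to 7 DPI and 0.27 and -0.17 for Col11a1 to Col5a1 in the later steps. Non-running arms gave 0.13 for Col3a1 to Col1a1 and -0.12 for Col5a1 to Col1a1 from 7 to 14 DPI, and 0.07 for Col5a2 to Col5a1 and -0.21 for Col11a1 to Col5a1 from 14 to 28 DPI. Rats numbered 91 and above gave 0.01 for Col1a1 to Col1a2, 0.04 for Col3a1 to Col1a1, -0.27 for Col5a1 to Col1a1 and 0.44 for Col11a1 to Col5a1 from 7 to 14 DPI, and 0.19 for the level of Col11a2. Unrepaired arms gave -0.08 for Col1a1 to Col1a2 and -0.34 for Col11a1 to Col5a1 from 14 to 28 DPI. Leaving out each muscle gave -0.25 to -0.17 for Col5a1 to Col1a1 from 3 to 7 DPI, 0.18 to 0.28 for Col11a1 to Col5a1 from 7 to 14 DPI and 0.11 to 0.17 for Col3a1 to Col1a1 from 14 to 28 DPI.

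Of single genes, none of them called, Col11a2 against contralateral muscle at 28 DPI was -0.02 with size factors, and with all libraries Col5a2 in contralateral muscle at 7 DPI was -0.39 and Col5a3 from 3 to 7 DPI -0.15. Leaving out each muscle gave -0.14 to 0.51 for Col5a3 from 3 to 7 DPI, and -0.23 to 0.24 at 14 DPI and -0.38 to 0.02 at 28 DPI for Col1a1 with running.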

Other observations

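The labels put 9 libraries in no group. Of these, 8 come from running R77, R78, R79 and R80 at 28 DPI, where the title and the injury label name opposite muscles. The 4 libraries titled as injured and labelled as without VML had Col1a1 at 35.5, 24.2, 13.1 and 32 TPM and Col3a1 at 67.9, 43.0, 28.6 and 70.0 TPM. The 4 titled as contralateral and labelled as VML had Col1a1 at 419.0, 481.5, 345.3 and 1040 TPM and Col3a1 at 704.3, 888.4, 632.0 and 1514 TPM. The values form separate clusters that do not overlap, and Col5a3 did so too, at 2.41 to 4.48 TPM and 12.5 to 24.6 TPM. The remaining library, a contralateral library of R11 labelled day 3 where the other libraries of that rat are labelled day 7, had Col1a1 at 207.3 TPM, Col3a1 at 240.7 TPM and Col11a2 at 2.21 TPM.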
